A study of Mus musculus with 25 samples.

Results

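The 10 genes described here are the growth factor receptors Pdgfra, Pdgfrb, Igf1r, Insr, Egfr, Erbb2 and Erbb3, the insulin receptor substrates Irs1 and Irs2, and the receptor adaptor Grb10. They were chosen by name, as a receptor and substrate family and with earlier results of these data known, out of 18161 genes measured. Each was read on its brightest probe set by mean value (over 25 arrays). Messenger RNA came from plates of 3 immortalized mouse embryonic fibroblast lines and was measured on whole-genome Affymetrix arrays. Littermates gave the wild-type cells (Tsc2+/+, p53-/-) and the Tsc2-null cells (Tsc2-/-, p53-/-), so both lacked p53, whereas the Tsc1-null line (Tsc1-/-) was p53+/+ and had been immortalized by the 3T3 protocol. All plates were serum starved for 24 h at 70% confluence. Vehicle groups (DMSO) held 3 arrays in each line, and 20 nM rapamycin for 2, 6, 12 or 24 h was given to the 2 null lines with 2 arrays at each time. Rapamycin-treated wild-type cells were not analysed here. Each genotype is 1 cell line, so genotype, line and, for Tsc1-null cells, p53 status and the way of immortalization cannot be told apart, and p-values measure the spread between arrays of a line, which may be technical.

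Platelet-derived growth factor binds the receptors Pdgfra and Pdgfrb, insulin and insulin-like growth factors bind Insr and Igf1r, and the EGF family signals through Egfr, Erbb2 and Erbb3. Insulin-type receptors phosphorylate Irs1 and Irs2, which recruit PI3-kinase and lead through AKT to the kinase complex mTORC1. The Tsc1 and Tsc2 proteins hold mTORC1 back, rapamycin inhibits it, and active mTORC1 with its kinase S6K is known to damp the signal at the IRS proteins, at PDGF receptor expression and through Grb10, an adaptor that inhibits insulin and IGF-1 receptors. Fibroblasts typically carry both PDGF receptors.

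Values are log2 expression, so that 1 unit is a doubling, and were comparable between arrays of the same probe set but not between genes. Array medians lay between 6.26 and 6.41 and replicates gave r of 0.996 to 0.998 over all probe sets. The label check took all arrays of a line together, with and without rapamycin. It read Tsc1 at 8.11 to 8.33 on wild-type, 7.78 to 8.87 on Tsc2-null and 6.51 to 7.38 on Tsc1-null arrays. Tsc2 read 9.67 to 9.74 on wild-type, 7.85 to 9.59 on Tsc2-null and 9.58 to 9.98 on Tsc1-null arrays, and the sources do not place either probe set inside or outside a deleted part. Of 10 fibroblast markers, 9 were measured and 0 of them were listed at 0 on all arrays of the authors' ratio table. That table lists 61.4% of its probe sets at 0 throughout, by a rule that is not stated. Every measured endothelial (5), skeletal muscle (5) and neural crest and glial (4) marker was held at 0 there, as were 4 of 7 epithelial, 4 of 6 haematopoietic and 2 of 3 adipocyte markers. Against wild type, 2 of the 9 fibroblast markers were called higher and 5 lower in the Tsc2-null line, and 1 higher and 7 lower in the Tsc1-null line. Means under vehicle were 10.79 (wild type), 6.83 (Tsc2-null) and 7.64 (Tsc1-null) for the surface marker Thy1, against 13.61, 14.03 and 13.47 for the collagen gene Col3a1. The summed linear level of the fibroblast markers was 99867 to 100958 on wild-type, 82660 to 101365 on Tsc2-null and 74016 to 92395 on Tsc1-null arrays. In this and the other sums, null-line ranges pool vehicle and rapamycin arrays, while wild-type ranges hold vehicle arrays only. The epithelial sum was 1506 to 1706, 1252 to 2361 and 838 to 1039 in the same order. Of the 7 epithelial markers, 2 were called higher and 2 lower than wild type in the Tsc2-null line, and 0 higher and 2 lower in the Tsc1-null line. Vehicle means of Cdh1 were 3.85, 8.04 and 3.95 and those of Krt18 9.30, 7.70 and 5.12, in that order. The haematopoietic sum was 895 to 929, 795 to 990 and 1094 to 1394, and the adipocyte sum 123 to 135, 169 to 243 and 126 to 457, again in that order. Haematopoietic calls under vehicle were 1 higher and 1 lower of 6 in the Tsc2-null line and 2 and 1 in the Tsc1-null line. Adipocyte calls were 1 and 0 of 3, then 1 and 1. The part of these line differences in the receptor results was not tested. A lower level in bulk RNA can mean fewer cells with the transcript or less RNA per cell, which cannot be told apart.

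RefSeq promoter windows on the mouse build GRCm38.p6 were matched for 7 of the 10 genes. The 250 bases before the start that the RefSeq table uses are shown for the 4 genes whose rapamycin responses are described most closely below, Igf1r, Irs1, Irs2 and Pdgfra, each read 5′ to 3′ on the strand of the gene. The Pdgfra window lies inside the annotated span of that gene, upstream of a start that is not its outermost one, and the other 3 windows end where the span begins. Capitals mark matches, on either strand, to the GC box GGGCGG, the E-box CACGTG, the FOXO motif TGTTTAC or the AP-1 motif TGANTCA, none of which overlapped in these 4 windows.
Igf1r, chr7:67952007-67952256, plus strand: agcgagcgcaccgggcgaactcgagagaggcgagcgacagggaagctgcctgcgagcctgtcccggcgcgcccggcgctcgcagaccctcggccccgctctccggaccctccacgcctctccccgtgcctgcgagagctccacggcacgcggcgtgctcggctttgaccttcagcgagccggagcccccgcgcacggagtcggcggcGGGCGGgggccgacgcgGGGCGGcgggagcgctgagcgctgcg
Irs1, chr1:82291440-82291689, minus strand: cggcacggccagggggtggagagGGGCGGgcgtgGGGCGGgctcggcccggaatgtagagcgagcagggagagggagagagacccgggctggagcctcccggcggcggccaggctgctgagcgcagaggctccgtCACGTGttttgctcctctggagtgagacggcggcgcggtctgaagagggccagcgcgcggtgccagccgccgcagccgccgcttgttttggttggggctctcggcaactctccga
Irs2, chr8:11008930-11009179, minus strand: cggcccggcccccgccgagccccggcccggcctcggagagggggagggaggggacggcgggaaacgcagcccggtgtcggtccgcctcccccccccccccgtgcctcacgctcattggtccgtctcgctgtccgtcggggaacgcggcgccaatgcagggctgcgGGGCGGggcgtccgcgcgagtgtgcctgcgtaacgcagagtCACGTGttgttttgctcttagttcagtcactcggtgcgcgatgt
Pdgfra, chr5:75152001-75152250, plus strand: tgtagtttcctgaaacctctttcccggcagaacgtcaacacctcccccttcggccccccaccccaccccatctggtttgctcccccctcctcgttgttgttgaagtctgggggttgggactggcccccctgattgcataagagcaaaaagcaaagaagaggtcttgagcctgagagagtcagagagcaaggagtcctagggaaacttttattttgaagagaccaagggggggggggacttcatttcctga
Both substrate genes held a CACGTG, at 115 bases before the start in Irs1 and 44 bases in Irs2, and 6.02% of all 32851 windows of this length, or 7.39% of those of measured genes, held that motif. The GC box occurred in Igf1r (43 and 26 bases before the start), in Irs1 (227 and 216 bases) and in Irs2 (85 bases), against 32.7% of all windows and 48.3% of those of measured genes. The Pdgfra window, with 54.4% G and C against 72.4% to 77.6% in the other 3, held none of the 4 motifs, and no window shown held TGTTTAC (3.17% of all, 2.62% of those of measured genes) or TGANTCA (6.75% and 5.62%). A match is a run of letters, and no binding was measured.

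The members lie on 7 autosomes of the mouse genome build GRCm38.p6. Pdgfra spans chr5:75151322-75198206, Pdgfrb chr18:61045127-61085067, Igf1r chr7:67952257-68233668 and Insr chr8:3150922-3279649. Irs1 spans chr1:82233105-82291439 and Irs2 chr8:10984681-11008929. On chromosome 11 lie Egfr (16752203 to 16913907), Erbb2 (98412484 to 98437716) and Grb10 (11930499 to 12037428), and Erbb3 spans chr10:128567523-128589635.

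**Figure D1:**
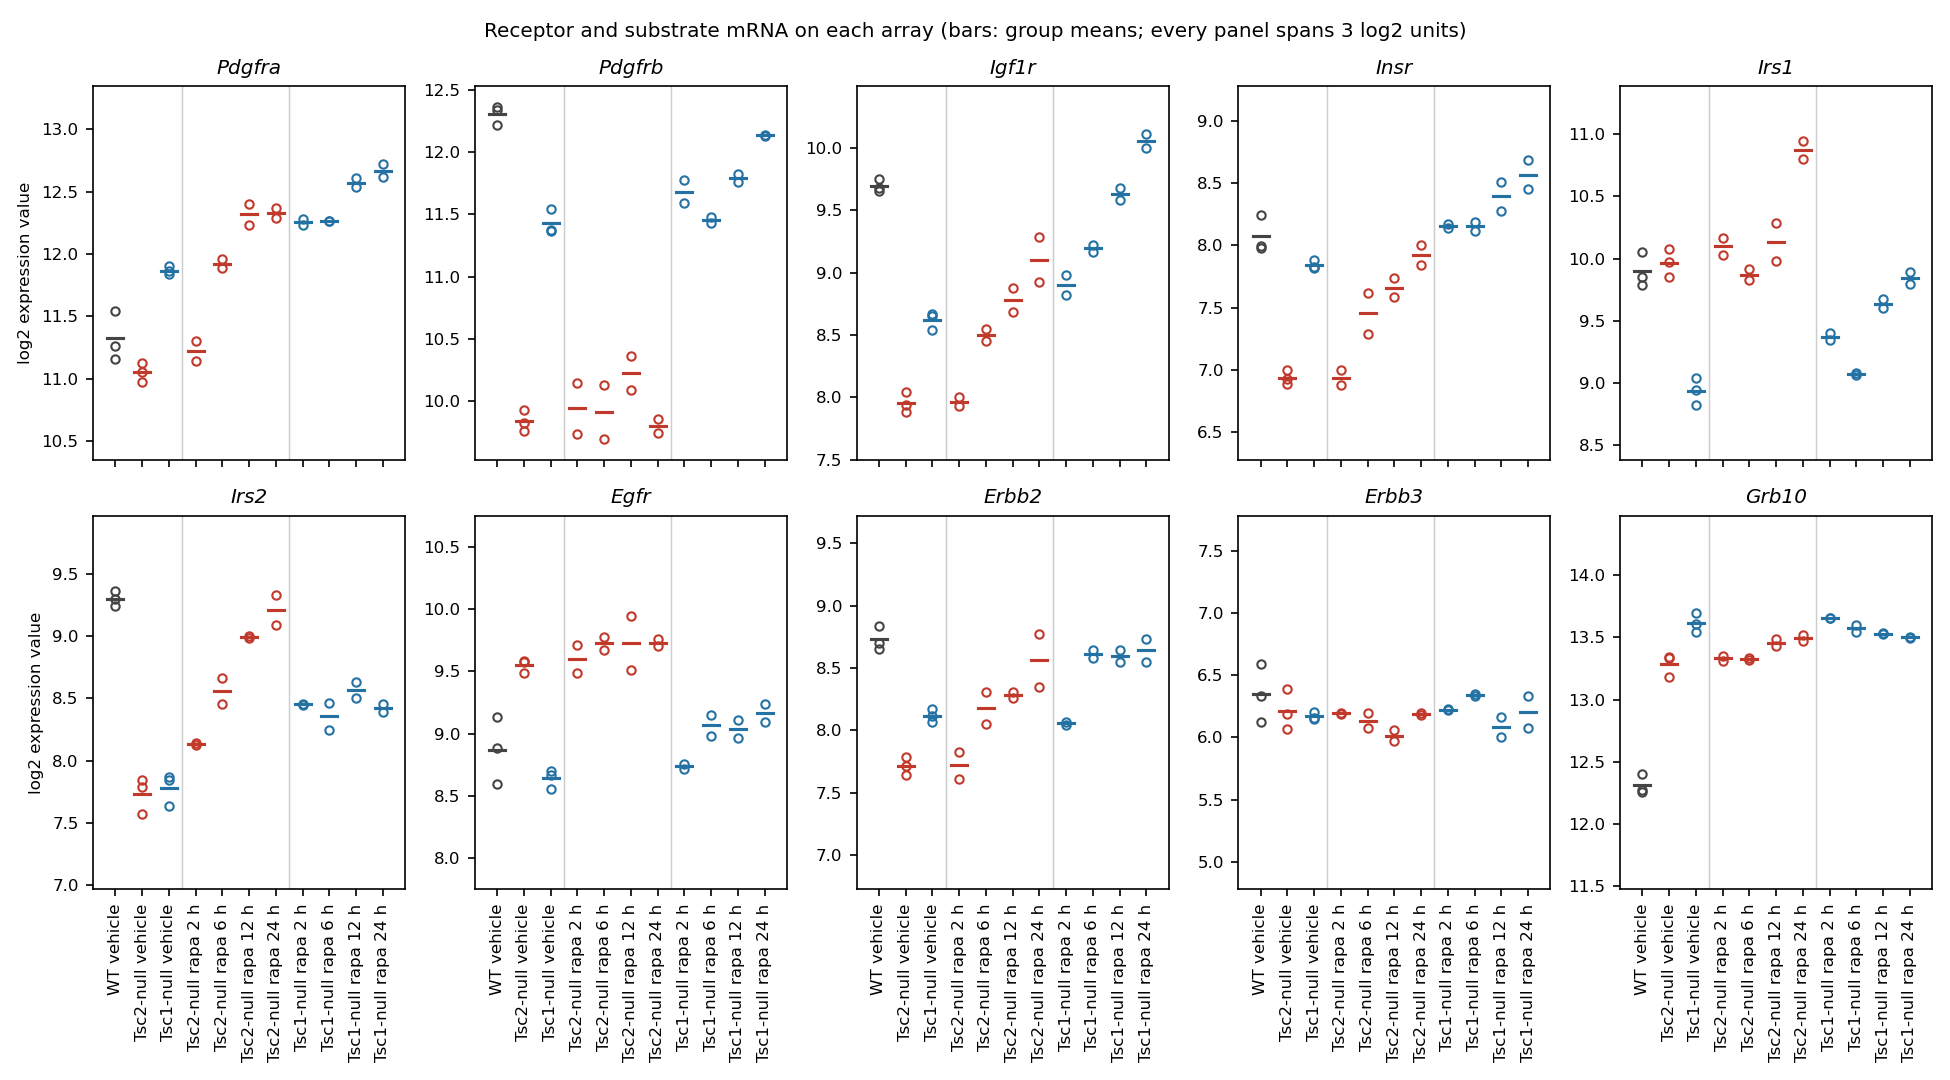
Log2 expression of each gene (y axis) on each of the 25 arrays, as circles, in the 11 groups of line and treatment (x axis), with bars for group means; each panel spans 3 log2 units. Igf1r, Irs2 and Pdgfrb of wild-type vehicle cells lie above those of both null lines under vehicle, Grb10 lies below, and Erbb3 stays between 5.97 and 6.59 on every array.

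Under vehicle, receptor and substrate mRNA was mostly lower in Tsc2-null cells than in wild type, several of the same genes were lower in Tsc1-null cells, and Grb10 was higher in both. In Tsc2-null cells 8 of the 10 genes passed the test (limma moderated test, adjusted p under 0.05 over all genes), 2 higher and 6 lower, where 45% of all genes passed, 23.6% higher and 21.4% lower. In Tsc1-null cells 7 passed, 2 higher and 5 lower, against 42.1% of all genes, 21.3% higher and 20.8% lower. Igf1r, Pdgfrb, Irs2 and Erbb2 were lower and Grb10 was higher in both lines, and Pdgfra was called in opposite directions. The median of the 10 differences was -0.65 in the Tsc2-null and -0.42 in Tsc1-null cells, beside -0.01 and -0.02 over all genes. These comparisons share the 3 wild-type arrays, so their likeness is not independent.

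Igf1r, the receptor of insulin-like growth factors, read 9.75, 9.65 and 9.68 on the wild-type vehicle arrays. Tsc2-null vehicle arrays read 7.93, 8.05 and 7.88, and Tsc1-null vehicle arrays 8.65, 8.67 and 8.54. The lines were ordered with no overlap, wild type highest and Tsc2-null lowest. The difference from wild type was -1.74 (SE 0.08) in Tsc2-null cells, 3.35-fold lower (limma adjusted p = 6.2e-14), and -1.08 (SE 0.08) in the Tsc1-null line (adjusted p = 3.4e-10). The insulin receptor Insr read 8.25, 7.99 and 7.98 in wild-type, 7.002, 6.89 and 6.92 in the Tsc2-null and 7.83, 7.88 and 7.82 in Tsc1-null vehicle cells. All Tsc2-null arrays lay clearly below those of the other lines. The Insr difference was -1.13 (SE 0.09, adjusted p = 6.6e-10) in Tsc2-null cells. In Tsc1-null cells it was -0.23 (SE 0.09, adjusted p = 0.053) with groups that did not overlap, and it passed without wild-type replicate 2 (0.0486) or 3 (0.0394).

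Irs2, one of the docking proteins that carry the insulin signal to PI3-kinase, read 9.36, 9.30 and 9.24 in wild-type cells. It read 7.85, 7.79 and 7.57 in the Tsc2-null and 7.87, 7.85 and 7.64 in Tsc1-null vehicle cells. Every null array lay over 1 unit below every wild-type array, and the null lines overlapped each other. The differences from wild type were -1.57 (SE 0.09, adjusted p = 9.9e-13) and -1.52 (SE 0.09, adjusted p = 2.1e-12), while the null lines differed by 0.05 (95% interval -0.13 to 0.23, adjusted p = 0.73). Irs1, the other substrate, read 10.05, 9.79 and 9.85 in wild-type, 10.08, 9.97 and 9.85 in the Tsc2-null and 8.82, 8.94 and 9.04 in Tsc1-null cells. Here the Tsc1-null arrays alone were low, and wild-type and Tsc2-null arrays overlapped. Irs1 differed by -0.96 (SE 0.09, adjusted p = 4.8e-09) in Tsc1-null cells and by 0.07 (95% interval -0.11 to 0.25, adjusted p = 0.60) in Tsc2-null cells. Between the null lines the Irs1 difference was -1.03 (SE 0.09, adjusted p = 1.5e-09).

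Pdgfrb, the PDGF receptor of mesenchymal cells that binds the B ligand, had the largest difference of the 10 genes between Tsc2-null and wild-type cells on the probe sets kept. It read 12.22, 12.36 and 12.34 in wild-type, 9.93, 9.83 and 9.76 in the Tsc2-null and 11.54, 11.37 and 11.37 in Tsc1-null vehicle cells, 3 separate levels. It was 5.54-fold lower in Tsc2-null cells (-2.47, SE 0.11, adjusted p = 1.1e-14) and 1.84-fold lower in Tsc1-null cells (-0.88, SE 0.11, adjusted p = 4.6e-07). Its partner Pdgfra read 11.55, 11.26 and 11.16 in wild-type, 11.12, 11.05 and 10.97 in the Tsc2-null and 11.90, 11.84 and 11.86 in Tsc1-null cells. Tsc1-null arrays were highest, and the gap between the lowest wild-type and the highest Tsc2-null array was small. Pdgfra was 0.55 (SE 0.08, adjusted p = 8.6e-06) higher in Tsc1-null cells. The Tsc2-null difference was -0.27 (SE 0.08, adjusted p = 0.0095), and it missed the threshold without wild-type replicate 1 (-0.16, adjusted p = 0.0962), without Tsc2-null replicate 3 (-0.23, 0.0508) and on both other probe sets (-0.04 and -0.09, adjusted p = 0.76 and 0.52).

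Of the EGF receptor family, Egfr itself read 8.60, 9.13 and 8.88 in wild-type, 9.57, 9.58 and 9.49 in the Tsc2-null and 8.70, 8.67 and 8.55 in Tsc1-null vehicle cells. Tsc2-null arrays lay above all others, while the Tsc1-null arrays overlapped the wider wild-type spread. Egfr was 0.68 (SE 0.11, adjusted p = 2.4e-05) higher in Tsc2-null cells, and the Tsc1-null difference of -0.23 (adjusted p = 0.12) passed without wild-type replicate 1 (-0.36, adjusted p = 0.00979). Erbb2, which has no ligand of its own and pairs with the other family members, read 8.84, 8.66 and 8.70 in wild-type, 7.71, 7.64 and 7.79 in the Tsc2-null and 8.07, 8.17 and 8.11 in Tsc1-null cells. The lines did not overlap. Erbb2 differed from wild type by -1.02 (SE 0.09, adjusted p = 5.1e-09) and -0.62 (SE 0.09, adjusted p = 9.7e-06) in the same order of null lines. Erbb3, a neuregulin receptor with an impaired kinase, read 6.06 to 6.59 on the vehicle arrays, and both of its probe sets were held at 0 on every array of the authors' ratio table. Erbb3 is thus dim here, and its differences of -0.14 (adjusted p = 0.30) and -0.18 (adjusted p = 0.16) were within overlapping groups. Without wild-type replicate 1 they were -0.25 (adjusted p = 0.0411) and -0.29 (adjusted p = 0.0184).

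Grb10, the inhibitory adaptor, read 12.40, 12.26 and 12.27 in wild-type, 13.34, 13.33 and 13.18 in the Tsc2-null and 13.69, 13.61 and 13.55 in Tsc1-null vehicle cells. All null arrays were above all wild-type arrays, with Tsc1-null highest. It was 0.97 (SE 0.06, adjusted p = 9.5e-12) higher in the Tsc2-null and 1.30 (SE 0.06, adjusted p = 7e-14) higher in Tsc1-null cells than in wild type. In the direct comparison of the null lines 8 of the 10 genes passed, 6 higher and 2 lower in Tsc1-null cells, where 43.4% of all genes passed (20.7% higher, 22.7% lower). Those higher were Pdgfrb (1.59, SE 0.11), Insr (0.91), Pdgfra (0.82), Igf1r (0.67), Erbb2 (0.40, adjusted p = 0.0012) and Grb10 (0.33, adjusted p = 0.00012). Egfr (-0.91, adjusted p = 5e-07) joined Irs1 as lower.

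Rapamycin was followed by higher mRNA for most of these receptors and substrates in both null lines, and for no member by a called fall on the probe sets kept. Over the 4 times, 19 of 40 tests in Tsc2-null cells and 25 of 40 in Tsc1-null cells were called higher and 0 lower. In Tsc2-null cells 1, 5, 6 and 7 of the 10 genes were higher at 2, 6, 12 and 24 h. All genes gave 1.01%, 11.6%, 16.5% and 17.5% called higher, 1.19%, 9.7%, 17.7% and 18.1% called lower, and 2.2%, 21.3%, 34.1% and 35.6% called in either direction. In Tsc1-null cells 3, 6, 8 and 8 members were higher, against 1.94%, 9.5%, 12.1% and 11.6% of all genes called higher, 1.32%, 13%, 11.7% and 18% called lower, and 3.26%, 22.5%, 23.8% and 29.6% in either direction. The members' median difference at 24 h was 0.88 in the Tsc2-null and 0.67 in Tsc1-null cells, beside 0.00 and -0.01 over all genes. The 4 times of a line share its 3 vehicle arrays, whereas the lines share none. A moderated F test over the 4 times called 6 of 10 members in Tsc2-null cells (40% of all genes) and 8 of 10 in Tsc1-null cells (38.1%). Cell type markers moved as well. At 2, 6, 12 and 24 h, 1, 5, 6 and 6 of the 9 fibroblast markers were called higher in the Tsc2-null and 0, 2, 4 and 4 in the Tsc1-null line, and 0 lower at any time (24 h medians 0.35 and 0.17). Epithelial markers were called higher for 0, 3, 3 and 4 of 7, then 1, 0, 0 and 2, with 0 lower (24 h medians 0.31 and 0.07). At 24 h the haematopoietic calls were 2 higher and 0 lower of 6, then 0 and 1, the adipocyte calls 0 and 1 of 3, then 1 and 1, and 0 endothelial, muscle or neural crest markers were called. Their part in the receptor results was not tested.

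**Figure D2:**
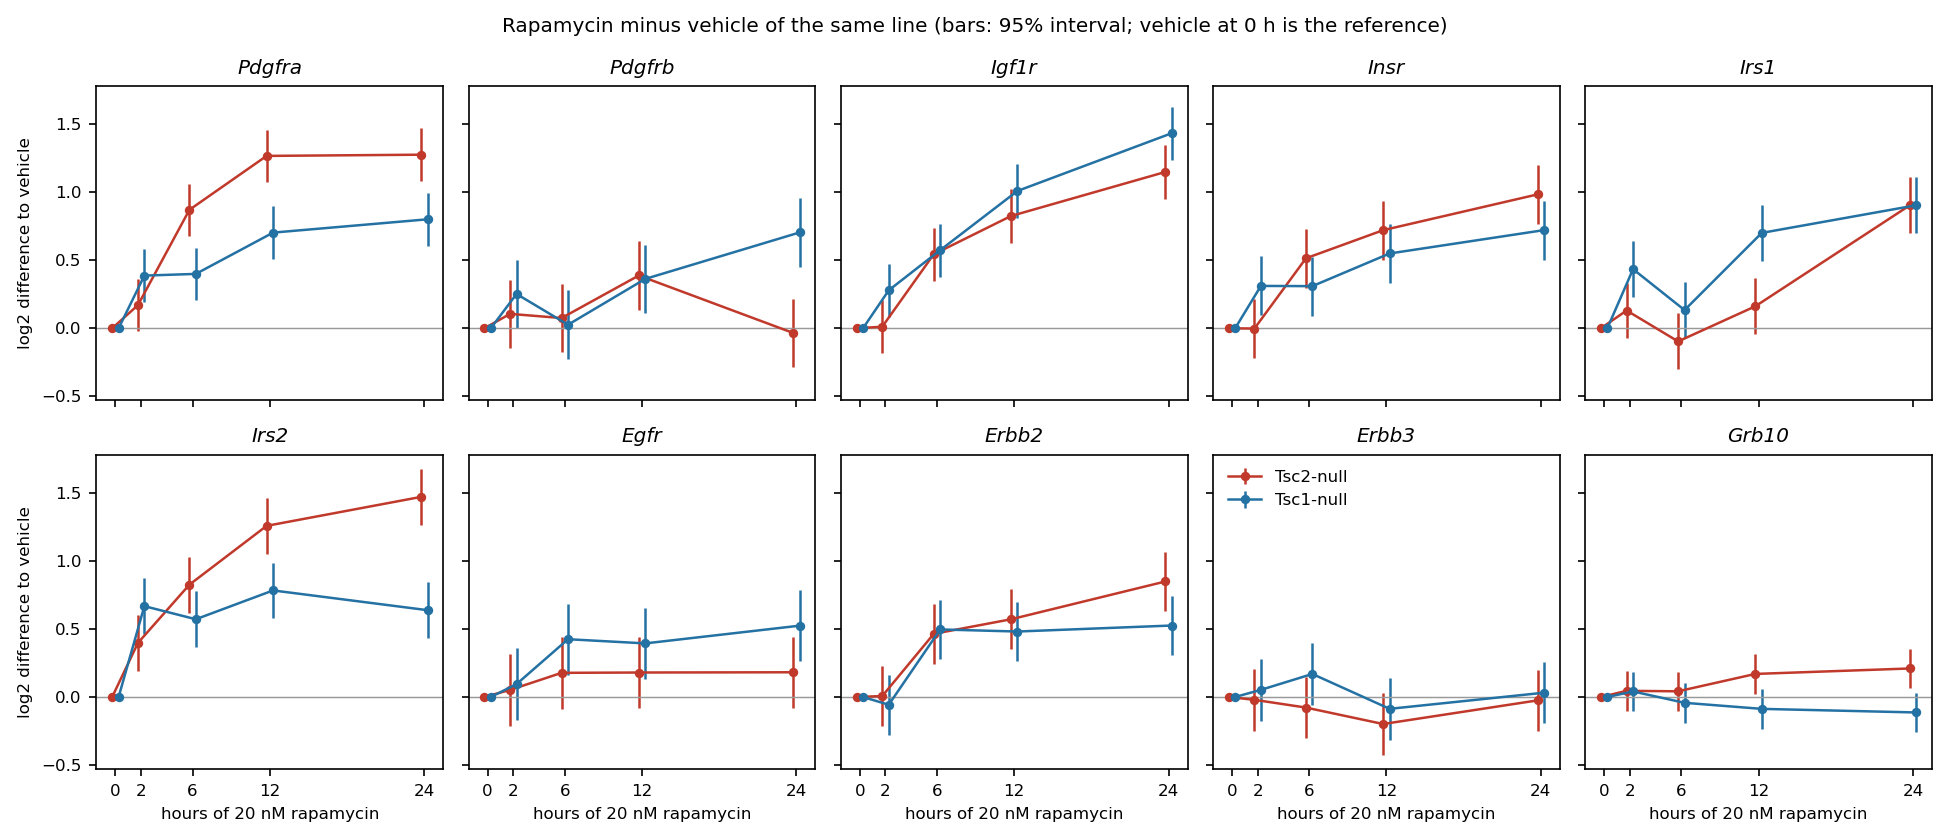
Fitted log2 difference to the vehicle arrays of the same line (y axis) against hours of 20 nM rapamycin (x axis) for each gene, Tsc2-null in red and Tsc1-null in blue, with 95% intervals and vehicle set to 0 at 0 h. Igf1r, Insr and Erbb2 stand higher at 6, 12 and 24 h in both lines, while at 24 h Irs2 stands at 1.47 in the Tsc2-null and 0.64 in Tsc1-null cells and Pdgfrb at -0.03 and 0.71.

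Irs2 was called at all 4 times in both lines. In Tsc2-null cells its arrays read 8.13 and 8.14 at 2 h, 8.66 and 8.46 at 6 h, 8.99 and 9.0003 at 12 h, and 9.33 and 9.09 at 24 h, from 7.57 to 7.85 under vehicle. Each later time stood higher than the one before, and every array was above vehicle. The differences were 0.40 (SE 0.10, adjusted p = 0.034), 0.83 (adjusted p = 2.3e-06), 1.26 (adjusted p = 1.9e-09) and 1.47 (adjusted p = 8.2e-11). Its 2 h call missed the threshold without Tsc2-null vehicle replicate 2 (0.0637) or 3 (0.179) and without either 2 h array (0.189 and 0.193). In Tsc1-null cells Irs2 read 8.45 and 8.46 at 2 h, 8.25 and 8.47 at 6 h, 8.50 and 8.64 at 12 h, and 8.39 and 8.46 at 24 h, from 7.64 to 7.87 under vehicle. It was above vehicle from the first time. The 6 h and 24 h arrays overlapped those of 2 h, and both 12 h arrays lay above them. These differences were 0.67 (SE 0.10, adjusted p = 0.00031), 0.57 (adjusted p = 0.00022), 0.78 (adjusted p = 3e-06) and 0.64 (adjusted p = 2.4e-05). In the authors' ratio table, however, Irs2 sat at its lowest value on all 11 Tsc1-null arrays, vehicle and rapamycin, and so showed no response there. It also sat at that value on 6 of 11 Tsc2-null arrays. Responses of Irs2 in the lines differed at 12 h, by -0.48 for Tsc1-null minus Tsc2-null (adjusted p = 0.030, missed without Tsc2-null vehicle replicate 3, Tsc1-null vehicle replicate 1 or 2, either Tsc2-null 12 h array or Tsc1-null 12 h replicate 1, 0.0663 to 0.146), and at 24 h, by -0.83 (SE 0.14, adjusted p = 0.00013).

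Irs1 followed another course. In Tsc2-null cells it read 10.03 and 10.17 at 2 h, 9.91 and 9.83 at 6 h, 10.28 and 9.98 at 12 h, and 10.95 and 10.80 at 24 h, against 9.85 to 10.08 under vehicle. Only the 24 h arrays left the vehicle range together, with a difference of 0.90 (SE 0.10, adjusted p = 1.4e-07). The 12 h difference of 0.16 (adjusted p = 0.23) passed without 12 h replicate 2 (0.31, adjusted p = 0.0465). In Tsc1-null cells Irs1 read 9.34 and 9.40, 9.06 and 9.08, 9.68 and 9.60, and 9.79 and 9.89 at 2, 6, 12 and 24 h, against 8.82 to 9.04. The difference was 0.44 at 2 h (adjusted p = 0.015), 0.13 at 6 h (adjusted p = 0.34), 0.70 at 12 h (adjusted p = 1.2e-05) and 0.91 at 24 h (adjusted p = 2.4e-07). The 2 h call missed the threshold without Tsc1-null vehicle replicate 1 (0.0616) or either 2 h array (0.0749 and 0.211). At 24 h the lines' responses differed by 0.00 (95% interval -0.29 to 0.29), and at 12 h by 0.54 (SE 0.14, adjusted p = 0.013), which was missed without Tsc2-null 12 h replicate 2 (0.39, adjusted p = 0.121) or Tsc1-null 12 h replicate 1 (0.50, adjusted p = 0.0662).

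The receptors of this axis, Igf1r and Insr, stood higher at later times in both lines. Igf1r in Tsc2-null cells read 8.003 and 7.93 at 2 h, 8.55 and 8.45 at 6 h, 8.87 and 8.69 at 12 h, and 9.28 and 8.93 at 24 h, against 7.88 to 8.05 under vehicle. In Tsc1-null cells it read 8.82 and 8.98, 9.23 and 9.17, 9.58 and 9.68, and 10.00 and 10.12, against 8.54 to 8.67. The groups of 1 line were separate from vehicle from 6 h in the Tsc2-null and from 2 h in the Tsc1-null cells. Called differences were 0.54, 0.83 and 1.15 (SE 0.09 each, adjusted p = 0.00018, 3.8e-07 and 1.8e-09) at 6, 12 and 24 h in Tsc2-null cells, and 0.58, 1.01 and 1.44 (adjusted p = 0.00012, 4.5e-08 and 1.2e-10) in Tsc1-null cells. At 2 h the Tsc1-null difference was 0.28 (adjusted p = 0.12). The lines' Igf1r responses at 24 h differed by 0.29 (95% interval 0.01 to 0.56, adjusted p = 0.15), a test that passed without Tsc2-null 24 h replicate 1 (0.46, adjusted p = 0.018).

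Insr in Tsc2-null cells read 6.996 and 6.88 at 2 h, 7.62 and 7.29 at 6 h, 7.73 and 7.58 at 12 h, and 8.003 and 7.84 at 24 h, against 6.89 to 7.002 under vehicle. From 6 h on all arrays were above vehicle, with differences of 0.52 (SE 0.10, adjusted p = 0.00087), 0.72 (adjusted p = 8.5e-06) and 0.99 (adjusted p = 8.7e-08). Its 6 h call missed the threshold without 6 h replicate 1 (0.35, adjusted p = 0.0545). In Tsc1-null cells Insr read 8.14 and 8.17, 8.12 and 8.19, 8.28 and 8.51, and 8.45 and 8.68 at the 4 times, against 7.82 to 7.88. Its differences were 0.31 (adjusted p = 0.12), 0.31 (adjusted p = 0.036), 0.55 (adjusted p = 0.00035) and 0.72 (adjusted p = 1e-05), and the 6 h call missed the threshold whichever of the 5 arrays was left out (0.0524 to 0.211). The lines' Insr responses differed at 24 h by -0.26 (95% interval -0.57 to 0.04, adjusted p = 0.25). In the authors' ratio table this difference had the opposite sign, and Insr sat at its lowest value there on 7 of 11 Tsc2-null arrays.

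Pdgfra was called in both lines as well. In Tsc2-null cells it read 11.14 and 11.30 at 2 h, 11.96 and 11.88 at 6 h, 12.40 and 12.23 at 12 h, and 12.29 and 12.37 at 24 h, against 10.97 to 11.12 under vehicle. In Tsc1-null cells it read 12.23 and 12.28, 12.27 and 12.27, 12.53 and 12.61, and 12.72 and 12.61, against 11.84 to 11.90. No rapamycin array of either line fell within its vehicle range. The Tsc2-null differences were 0.17 (adjusted p = 0.58), 0.87 (SE 0.09, adjusted p = 4.8e-07), 1.27 (adjusted p = 7.3e-10) and 1.28 (adjusted p = 2.7e-10). Corresponding Tsc1-null differences were 0.39 (adjusted p = 0.021), 0.40 (adjusted p = 0.0033), 0.70 (adjusted p = 5.3e-06) and 0.80 (adjusted p = 5.6e-07), of which the 2 h call was missed without vehicle replicate 2 or 3 or either 2 h array (0.0558 to 0.256). The Tsc1-null response was smaller by 0.47 at 6 h (adjusted p = 0.045), 0.56 at 12 h (adjusted p = 0.0059) and 0.48 at 24 h (adjusted p = 0.011). The 6 h difference was called only with all 10 arrays or without Tsc2-null vehicle replicate 1 or Tsc2-null 6 h replicate 2 (0.0642 to 0.197 otherwise). The 24 h difference missed the threshold without Tsc2-null 24 h replicate 2 (0.051) or Tsc1-null 24 h replicate 2 (0.0595).

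Pdgfrb responded less regularly. Tsc2-null arrays read 9.74 and 10.15 at 2 h, 10.13 and 9.69 at 6 h, 10.36 and 10.09 at 12 h, and 9.75 and 9.86 at 24 h, against 9.76 to 9.93 under vehicle. Replicates at 2 and 6 h lay on both sides of the vehicle range, and only the 12 h arrays were both above it (0.39, SE 0.12, adjusted p = 0.015), a call missed without Tsc2-null vehicle replicate 3 (0.0576) or 12 h replicate 1 (0.25, adjusted p = 0.239). In Tsc1-null cells Pdgfrb read 11.59 and 11.77, 11.48 and 11.43, 11.76 and 11.83, and 12.13 and 12.13 at the 4 times, against 11.37 to 11.54. The 12 h difference was 0.36 (adjusted p = 0.032, missed without vehicle replicate 2 or 3 or either 12 h array, 0.0871 to 0.192) and the 24 h difference 0.71 (SE 0.12, adjusted p = 8.6e-05). At 24 h the lines differed in this response by 0.74 (SE 0.17, adjusted p = 0.0031), while the other Pdgfrb probe set gave 0.16 (adjusted p = 0.51).

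Erbb2 in Tsc2-null cells read 7.83 and 7.61, 8.30 and 8.05, 8.26 and 8.31, and 8.77 and 8.35 at 2, 6, 12 and 24 h, against 7.64 to 7.79 under vehicle. In Tsc1-null cells it read 8.07 and 8.05, 8.58 and 8.64, 8.55 and 8.65, and 8.55 and 8.73, against 8.07 to 8.17. From 6 h on no rapamycin array lay within its vehicle range. The differences at 6, 12 and 24 h were 0.46 (adjusted p = 0.0025), 0.57 (adjusted p = 0.00016) and 0.85 (SE 0.11, adjusted p = 9.2e-07) in Tsc2-null cells, and 0.50 (adjusted p = 0.0016), 0.48 (adjusted p = 0.0015) and 0.53 (adjusted p = 0.00046) in Tsc1-null cells. The Tsc2-null 6 h call was missed without 6 h replicate 1 (0.34, adjusted p = 0.089). The lines' Erbb2 responses at 24 h differed by -0.32 (95% interval -0.64 to -0.01, adjusted p = 0.15), a test that passed without Tsc2-null 24 h replicate 2 (-0.54, adjusted p = 0.0114).

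Egfr was called after rapamycin in Tsc1-null cells. Its arrays there read 8.76 and 8.71, 9.15 and 8.98, 8.96 and 9.11, and 9.24 and 9.09 at the 4 times, against 8.55 to 8.70, with differences of 0.09 (adjusted p = 0.82), 0.43 (adjusted p = 0.019), 0.39 (adjusted p = 0.025) and 0.52 (SE 0.13, adjusted p = 0.0025). The 6 h call was missed without vehicle replicate 3 (0.0707) or 6 h replicate 1 (0.174), and the 12 h call without vehicle replicate 3 (0.0843) or either 12 h array (0.051 and 0.224). In Tsc2-null cells the Egfr differences were 0.05 to 0.18 (adjusted p = 0.31 to 0.99). Without 12 h replicate 1, the Tsc2-null 12 h difference was 0.40 (adjusted p = 0.0435). The lines' Egfr responses at 24 h differed by 0.34 (95% interval -0.03 to 0.71, adjusted p = 0.21). Erbb3 stayed between 5.97 and 6.35 on the rapamycin arrays, and its 8 differences lay between -0.20 and 0.17 with adjusted p of 0.18 or more.

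Grb10 differed from vehicle by small amounts on the probe set kept. Tsc2-null arrays read 13.31 and 13.35, 13.34 and 13.32, 13.48 and 13.43, and 13.47 and 13.52 at the 4 times, against 13.18 to 13.34 under vehicle. The 12 h and 24 h arrays were above the vehicle range, with differences of 0.17 (adjusted p = 0.067) and 0.21 (SE 0.07, adjusted p = 0.022). The 24 h call was missed without Tsc2-null vehicle replicate 3 (0.113) or either 24 h array (0.0563 and 0.129). Tsc1-null arrays read 13.66 and 13.65, 13.60 and 13.54, 13.52 and 13.53, and 13.50 and 13.50, against 13.55 to 13.69, so that the later arrays lay below vehicle. The Tsc1-null difference was -0.11 (adjusted p = 0.27) at 24 h. The lines' responses at 24 h differed by -0.32 (SE 0.10, adjusted p = 0.022), a call missed without Tsc2-null vehicle replicate 3, Tsc1-null vehicle replicate 1, Tsc2-null 24 h replicate 2 or either Tsc1-null 24 h array (0.0549 to 0.0725).

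Across the interactions of line and rapamycin, 0, 1, 3 and 4 of the 10 genes were called at 2, 6, 12 and 24 h, beside 0.105%, 4.16%, 11.3% and 20.2% of all genes. The called members were 0, 0, 1 and 1 higher and 0, 1, 2 and 3 lower for Tsc1-null minus Tsc2-null, beside 0.0441%, 1.28%, 5.87% and 8.14% higher and 0.0606%, 2.87%, 5.4% and 12.1% lower over all genes. At 2 h no member passed the adjusted threshold, and the limma test gave Irs1 0.30 (unadjusted p = 0.041) and Insr 0.31 (unadjusted p = 0.045). These unadjusted p-values were picked out of 10 genes and are not calls. Over all members tested at 2 h, the same test on the authors' ratio table called 1. At 24 h, the difference from vehicle was more positive in Tsc2-null cells for Pdgfra, Irs2 and Grb10, and in Tsc1-null cells for Pdgfrb.

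After 24 h of rapamycin, the null lines were set against wild-type vehicle arrays. In Tsc2-null cells 6 of the 10 genes passed, 4 higher and 2 lower, where 41.6% of all genes did (20.8% higher, 20.8% lower). Irs2 differed by -0.09 (95% interval -0.30 to 0.11, adjusted p = 0.52), Insr by -0.15 (-0.37 to 0.07, adjusted p = 0.29) and Erbb2 by -0.17 (-0.39 to 0.05, adjusted p = 0.23), and the arrays of each overlapped wild type. The Erbb2 difference passed without 24 h replicate 1 (-0.38, adjusted p = 0.0109), as did that of Erbb3 (-0.16) without wild-type replicate 1 (-0.27, adjusted p = 0.0429). Igf1r was still lower, by -0.59 (SE 0.09, adjusted p = 1.6e-05), as was Pdgfrb, by -2.50 (SE 0.12, adjusted p = 9e-14). Pdgfra (1.01, SE 0.09), Irs1 (0.97, SE 0.10), Egfr (0.86, SE 0.13) and Grb10 (1.18, SE 0.07) were higher, with adjusted p of 5.6e-06 or less. In Tsc1-null cells 5 passed, 4 higher and 1 lower, where 38.5% of all genes did (16.8% higher, 21.7% lower). Irs2 was lower, by -0.88 (SE 0.10, adjusted p = 1.6e-07). Irs1 differed by -0.06 (-0.26 to 0.15, adjusted p = 0.74), Erbb2 by -0.09 (-0.31 to 0.13, adjusted p = 0.58) and Pdgfrb by -0.17 (-0.43 to 0.08, adjusted p = 0.30), although the other Pdgfrb probe set was lower (-0.54, adjusted p = 8.7e-05). Pdgfra (1.35, SE 0.09), Grb10 (1.19, SE 0.07), Insr (0.49, SE 0.10, adjusted p = 0.00049) and Igf1r (0.36, SE 0.09, adjusted p = 0.0035) were higher, and the Igf1r call was missed without Tsc1-null 24 h replicate 2 (0.30, adjusted p = 0.059). Egfr differed by 0.30 (adjusted p = 0.071), and by 0.43 without wild-type replicate 2 (adjusted p = 0.00824). With no wild-type rapamycin arrays used here, rapamycin and genotype cannot be told apart in these 2 comparisons.

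**Figure D3:**
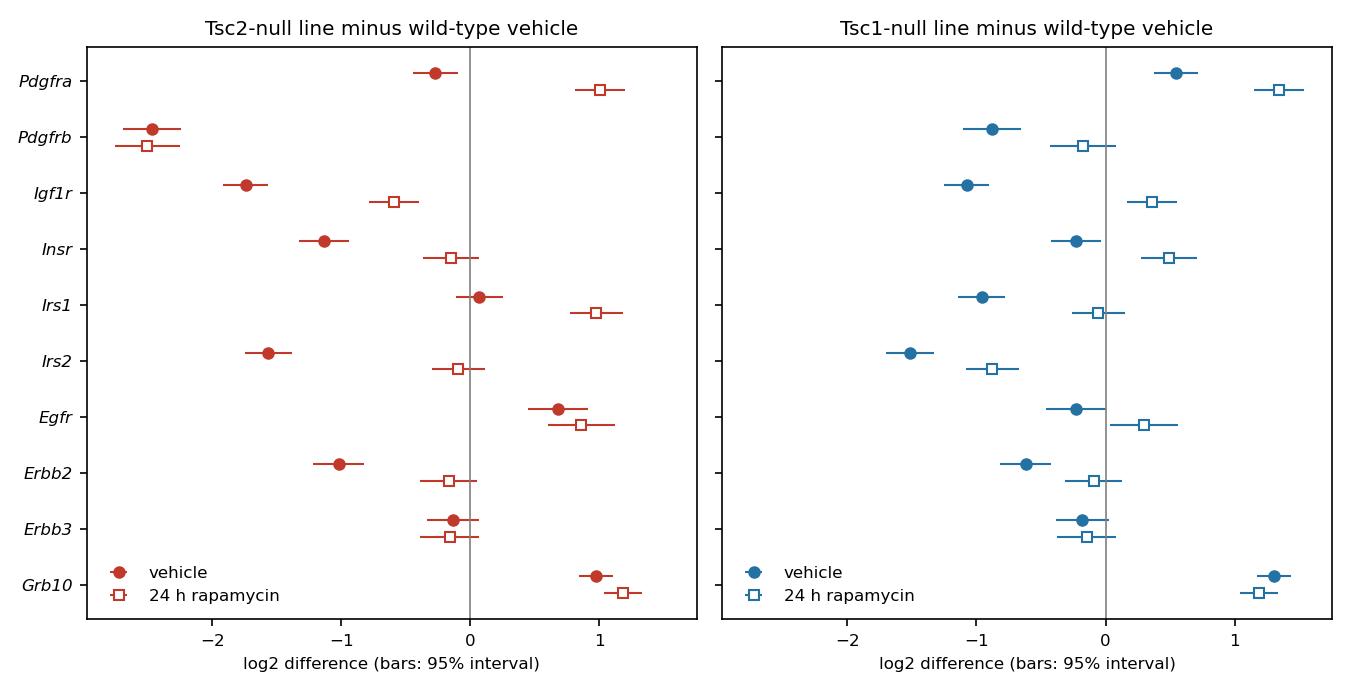
Log2 difference from wild-type vehicle cells (x axis) for each gene (y axis) in the Tsc2-null line (left, red) and the Tsc1-null line (right, blue), under vehicle (filled circles) and after 24 h of rapamycin (open squares), with 95% intervals. In Tsc2-null cells Irs2 moves from -1.57 to -0.09 and Pdgfrb from -2.47 to -2.50; Grb10 stays between 0.97 and 1.30 in all 4 comparisons.

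Over the 11 groups, the level of Pdgfra ran from 11.05 in Tsc2-null vehicle to 12.67 in Tsc1-null cells at 24 h, and that of Igf1r from 7.95 to 10.06 between the same groups. Irs2, Erbb2 and Pdgfrb were highest in wild-type cells, where Grb10 was lowest. Irs1 and Egfr were lowest in Tsc1-null vehicle cells and highest in Tsc2-null cells at 24 h, where Egfr overlapped every other Tsc2-null rapamycin group. Insr was lowest in Tsc2-null cells under vehicle and at 2 h, which overlapped, and highest in Tsc1-null cells at 24 h. Of 10 neighbouring pairs, the arrays were separate in 5 for Pdgfra and Irs1, in 4 for Pdgfrb, Igf1r, Irs2 and Grb10, in 3 for Insr, in 2 for Egfr and Erbb2 and in 1 for Erbb3, and those of the other pairs overlapped. The separate pairs come to 34% for the members and to 21.2% over all 18161 genes. Among the members, Pearson's r over the 11 group means was 0.93 for Igf1r with Insr, 0.92 for Igf1r with Erbb2, -0.86 for Pdgfrb with Egfr and 0.54 for Irs1 with Irs2. These are descriptions over means that share lines and vehicle arrays.

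The probe set chosen mattered for Egfr, Grb10, Pdgfrb and Pdgfra. As given above, the other Pdgfrb probe set did not call the 24 h interaction of line and rapamycin. It did call Pdgfrb lower in Tsc1-null cells at 24 h than in wild type. Both other Pdgfra probe sets missed the Tsc2-null difference from wild type under vehicle. The 10 genes have 28 probe sets, and of the 18 not kept, 10 differed from 0 on at least 1 array of the authors' ratio table. The 3 such Egfr probe sets gave 2.78, 2.63 and 1.97 in Tsc2-null against wild-type vehicle cells (adjusted p = 3.3e-14, 3.7e-18 and 1.2e-15, over all probe sets), where the probe set kept gave 0.68. They gave 1.22, 1.17 and 0.63 at 24 h of rapamycin in Tsc1-null cells (adjusted p = 1.1e-06, 4.5e-10 and 5.4e-06), where the probe set kept gave 0.52. At 24 h they also called the interaction of line and rapamycin, at 0.93, 1.23 and 0.62 (adjusted p = 0.0025, 1e-07 and 0.00083), which the probe set kept did not (0.34). Both other Grb10 probe sets were higher than wild type by 1.45 and 1.36 in Tsc2-null and by 2.34 and 2.44 in Tsc1-null cells. At 24 h of rapamycin they were higher in Tsc2-null (0.70 and 0.68) and lower in Tsc1-null cells (-0.39 and -0.48, adjusted p = 0.0052 and 0.0011), so a fall of Grb10 was called there that the probe set kept did not call. For Pdgfra both others rose at 24 h in Tsc2-null (1.13 and 0.60) and in Tsc1-null cells (0.55 and 0.37). The 2 other Igf1r probe sets not held at 0 in the ratio table were lower in the Tsc2-null line (-1.25 and -1.88) and Tsc1-null cells (-0.86 and -1.12) and higher at 24 h (0.99 and 1.29, then 1.23 and 1.49), all called. Irs1, Irs2 and Erbb2 have 1 probe set each, and Insr rests on 1, since its other 2 are held at 0 in the ratio table.

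**Figure D4:**
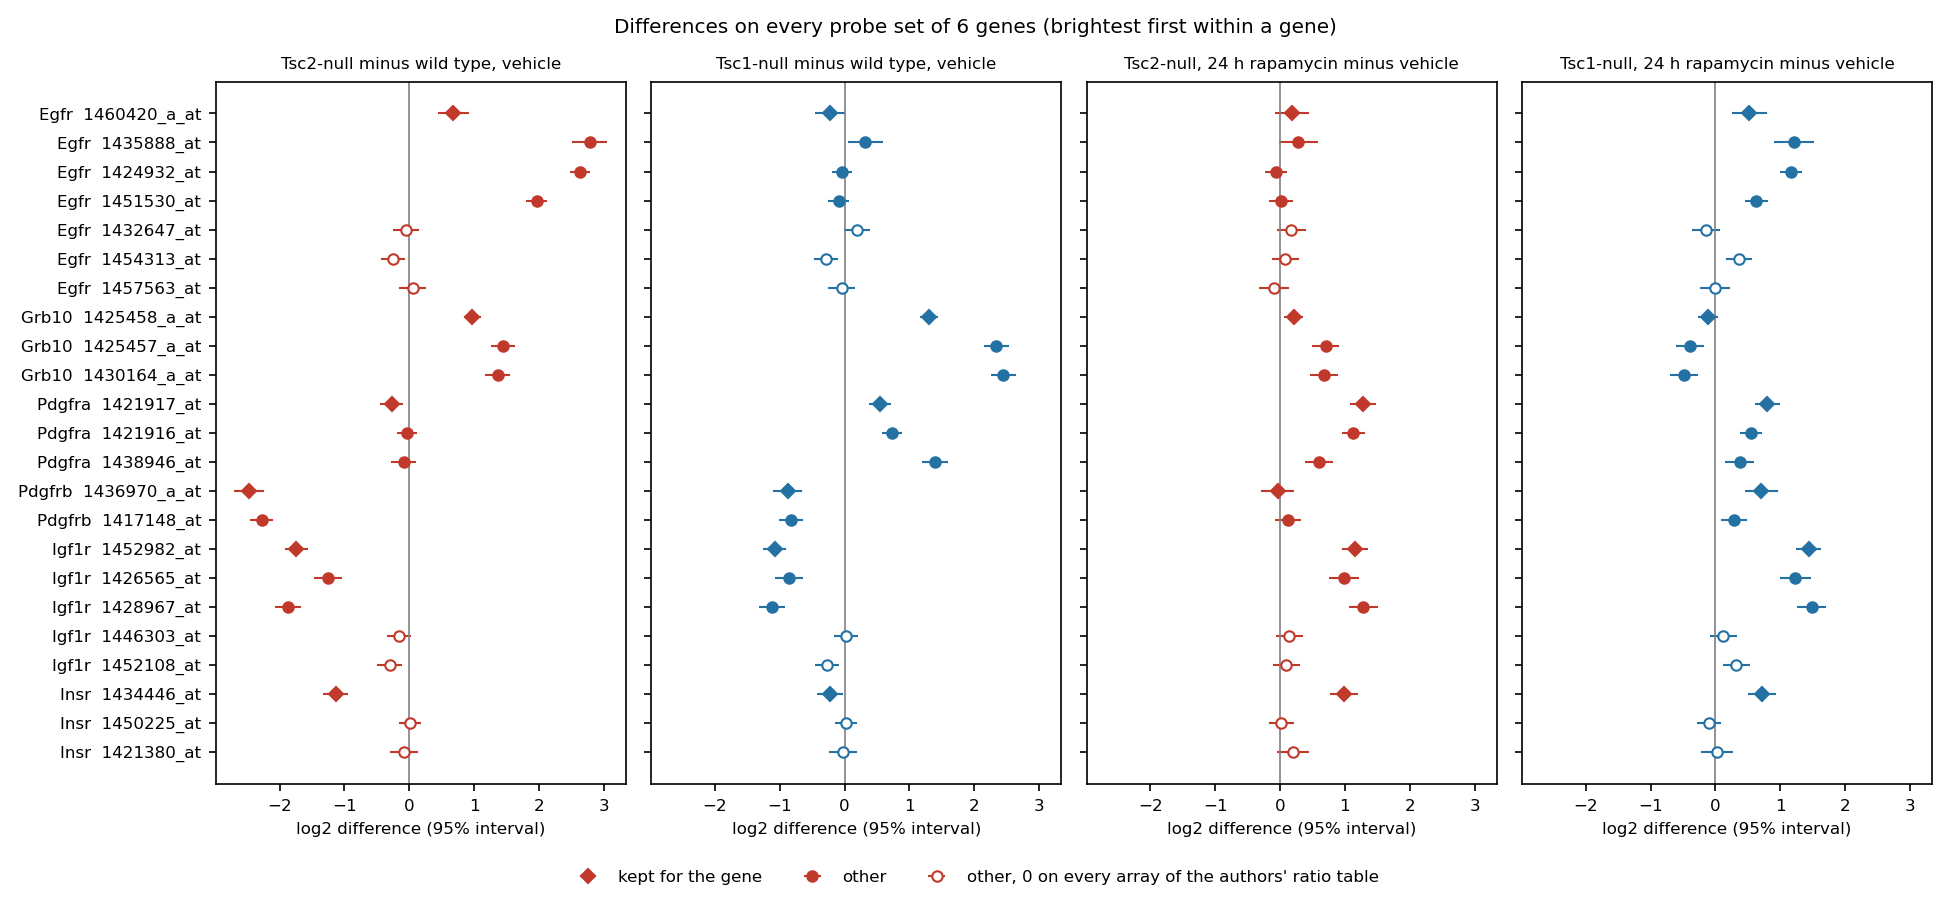
Log2 difference (x axis, with 95% interval) on every probe set (y axis) of 6 genes in 4 comparisons: both null lines compared with wild type, then 24 h of rapamycin in both. Diamonds are the probe sets kept, filled circles other probe sets, and open circles other probe sets at 0 on all arrays of the authors' ratio table; 3 Egfr probe sets lie at 1.97 to 2.78 in the first panel against 0.68 for the one kept.

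Other genes of receptor signalling were counted in 4 lists that had been chosen with results of these data known. Of 14 measured PDGF and EGF family ligands, 1 was higher and 6 lower in the Tsc2-null and 0 higher and 8 lower in the Tsc1-null cells than in wild type (medians -0.25 and -0.36). All genes gave 23.6% higher and 21.4% lower, then 21.3% and 20.8%, with medians of -0.01 and -0.02. The EGF receptor ligand gene Ereg stood at 9.88 in wild-type, 6.66 in the Tsc2-null line (-3.22, SE 0.11, adjusted p = 8.1e-17) and 5.29 in the Tsc1-null line (-4.60, adjusted p = 1.7e-19). Hbegf, which also encodes an EGF receptor ligand, stood at 9.46, 6.82 (-2.64) and 6.47 (-2.99) in the same order. After 24 h of rapamycin 3 ligands were higher and 2 lower in Tsc2-null cells, among them Pdgfc (0.92, adjusted p = 2.1e-07) and Btc (-0.99, adjusted p = 6.7e-08). In Tsc1-null cells 2 were higher, Nrg1 (1.01, adjusted p = 5.8e-05) and Hbegf (0.89, adjusted p = 3.9e-06), and 2 were lower. Over all genes 17.5% were higher and 18.1% lower at 24 h in the Tsc2-null line, and 11.6% and 18% in the Tsc1-null line. The medians at that time were 0.16 and 0.01 for the ligands and 0.00 and -0.01 for all genes.

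Of 25 measured adaptors and PI3K-AKT-Ras relay genes, 8 were higher and 7 lower in the Tsc2-null and 6 higher and 9 lower in the Tsc1-null cells (medians 0.02 and -0.08), beside 23.6% and 21.4%, then 21.3% and 20.8%, of all genes (medians -0.01 and -0.02). The adaptor Nck2 was higher in both (1.82 and 0.97), although 1 of its 3 probe sets gave -0.02 and -0.08 (adjusted p = 0.89 and 0.47). Pik3cb, a catalytic subunit of PI3-kinase, was lower in the Tsc2-null line (-1.12, adjusted p = 5.5e-11), and Pik3r3, a regulatory subunit, was higher in Tsc1-null cells (1.32, adjusted p = 1.1e-11). The vehicle mean of Pik3r3 was also higher in the Tsc2-null line (9.87) than in wild type (8.85). At 24 h of rapamycin, 7 relay genes were higher and 1 lower in the Tsc2-null and 6 higher and 4 lower in the Tsc1-null cells, beside 17.5% and 18.1%, then 11.6% and 18%, of all genes. The relay medians at 24 h were 0.05 and 0.04, against 0.00 and -0.01. Pik3r3 fell by 1.63 (adjusted p = 9.2e-12) and 1.34 (adjusted p = 3.4e-10), and the docking protein gene Gab1 rose by 0.77 (adjusted p = 7e-08) and 0.55 (adjusted p = 1.2e-05).

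Negative regulators were 6 higher and 10 lower of 18 in the Tsc2-null and 4 higher and 9 lower in the Tsc1-null cells (medians -0.32 and -0.25). The same shares over all genes were 23.6% and 21.4%, then 21.3% and 20.8% (medians -0.01 and -0.02). Errfi1, which encodes an inhibitor of EGF receptor kinases, stood at 11.65 in wild-type, 8.59 in the Tsc2-null and 8.80 in Tsc1-null cells (-3.06 and -2.85, adjusted p = 9.3e-19 and 3e-18). Cul7, part of a ubiquitin ligase for Irs1, was lower in Tsc2-null cells (-1.28, adjusted p = 5.3e-13), and Grb14, a relative of Grb10, was lower in Tsc1-null cells (-2.84, adjusted p = 9e-17), with a dimmer probe set at -0.14 (adjusted p = 0.50). After 24 h of rapamycin 3 rose and 4 fell in Tsc2-null cells, and 5 rose and 3 fell in Tsc1-null cells, beside 17.5% and 18.1%, then 11.6% and 18%, of all genes (medians 0.00 and 0.07, against 0.00 and -0.01). Trib3, an inhibitor of AKT, fell by 2.47 (adjusted p = 2.4e-13) and 2.17 (adjusted p = 4.2e-12). Lrig1, which promotes the loss of ErbB receptors, fell by 1.45 in Tsc2-null cells (adjusted p = 7e-12; 1 of its 3 probe sets 0.12, adjusted p = 0.56), and Errfi1 rose by 1.46 in Tsc1-null cells (adjusted p = 3.1e-11).

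Of 42 other receptor tyrosine kinases, 11 were higher and 7 lower in the Tsc2-null and 7 higher and 13 lower in the Tsc1-null cells (medians -0.01 and -0.11), where all genes gave 23.6% and 21.4%, then 21.3% and 20.8% (medians -0.01 and -0.02). Epha3, an ephrin receptor, stood at 9.06 in Tsc2-null against 3.88 in wild-type cells (5.18, adjusted p = 1.1e-18). The Gas6 receptor gene Axl stood at 12.87 in wild-type, 10.49 in the Tsc2-null and 10.89 in Tsc1-null cells, with its other probe set at -0.12 and -0.26 (adjusted p = 0.48 and 0.083). Met, the hepatocyte growth factor receptor gene, stood at 12.05 in wild-type and 9.28 in Tsc1-null cells (-2.77, adjusted p = 2.2e-19). At 24 h of rapamycin 12 were higher and 1 lower in the Tsc2-null and 10 higher and 2 lower in the Tsc1-null cells (medians 0.11 in both), where all genes gave 17.5% and 18.1%, then 11.6% and 18% (medians 0.00 and -0.01). Axl rose by 1.17 (adjusted p = 2e-11) and 1.04 (adjusted p = 2.6e-10) on the probe set kept, its other giving 0.19 and -0.04 (adjusted p = 0.33 and 0.87). Met rose by 1.24 in Tsc2-null cells (adjusted p = 1.1e-11), and the collagen receptor gene Ddr1 by 1.502 in Tsc1-null cells (adjusted p = 9.3e-08), where 4 of its 8 probe sets were called.

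The genes whose 11 group means ran most like each member's were sought among 4991 genes with a range of at least 1. Gab1 ran most like Pdgfra (r = 0.987), followed by Vps37d (0.982). The ERK phosphatase gene Dusp6 (0.963) and the Sprouty gene Spry1 (0.931), both feedback inhibitors of receptor signalling, were nearest to Irs2. For Igf1r they were Fchsd2 (0.987) and Fstl1 (0.983), for Insr Parva (0.987) and Adamts5 (0.983), and for Irs1 Cited2 (0.952) and Iscu (0.933). Tcf4 (0.989) and Ipo7 (0.988) were nearest to Pdgfrb, Gli3 (0.985) and Bmp4 (0.981) to Egfr, Rhbdf1 (0.974) and Nfkbie (0.969) to Erbb2, and Cd302 (0.987) and Trim44 (0.985) to Grb10. Erbb3 varied too little for a match. These values describe means over 3 lines and shared vehicle arrays, and with so many candidates high values arise readily.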

How the data were processed

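The authors deposited log2 expression per probe set, made with RMA per the submitters' processing notes, which also name limma; no versions are stated. A second table deposited by the authors holds log2 ratios to wild-type vehicle; 61.4% of its 45037 probe sets are listed at 0 throughout. The labels do not say how it was made, and it served as an alternative. Of 45101 probe sets, 34945 name 1 gene in the platform annotation, 932 several, 9160 none and 64 are controls. The brightest probe set (mean over 25 arrays) stood for each of 18161 genes. Symbols were updated through RefSeq for 59 probe sets.

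One mean per group was fitted with limma 3.58.1 in R 4.3.3 (lmFit, eBayes, two-sided), with 14 residual degrees of freedom, for 17 comparisons and 2 F tests. P-values were Benjamini-Hochberg adjusted over all genes, with a threshold of 0.05. The number of arrays limits the precision. The members and lists were chosen with earlier results of these data known. Every member is named, with, for each list and main comparison, up to 2 called genes of lowest p, and the 2 genes nearest each member over group means. A list gene named for a single null line can therefore differ in the other line as well. Sample labels that give 14 h and 11 h in a description field were read as 24 h and 12 h from the other fields. The alternatives were quantile normalization, centred arrays, a pseudocount of 64, a filter on the dimmest 40% of genes, other probe sets or their mean, trend and robust eBayes, a replicate block, groups alone, each array left out and the ratio table. The fit was tested on simulated data with independent noise and known shifts in few genes of a single group. Such data check the code, and not the calls on the real arrays.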

Additional observations from a re-analysis of the deposited data

Results flagged for a closer look

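These 8 results differed between the null lines under the same rapamycin contrast, by limma's interaction test with p-values adjusted over all genes. Values are the Tsc1-null minus the Tsc2-null response in log2. For Pdgfra they were -0.47 at 6 h (adjusted p = 0.045), -0.56 at 12 h (adjusted p = 0.0059) and -0.48 at 24 h (adjusted p = 0.011), and in each line every rapamycin array lay above vehicle. For Irs2 they were -0.48 at 12 h (adjusted p = 0.030) and -0.83 at 24 h (adjusted p = 0.00013). Its 12 h call was missed for 6 of the 10 arrays left out in turn. In the authors' ratio table Irs2 sat at its lowest value on all 11 Tsc1-null arrays, so that no Tsc1-null response could be read there. For Irs1 the value was 0.54 at 12 h (adjusted p = 0.013) and 0.00 at 24 h. For Pdgfrb it was 0.74 at 24 h (adjusted p = 0.0031), beside 0.16 (adjusted p = 0.51) on its other probe set. For Grb10 it was -0.32 at 24 h (adjusted p = 0.022), beside -1.09 and -1.16 on its other probe sets (adjusted p = 7.7e-06 and 5.4e-06). The 24 h interactions of Irs2 and Pdgfrb were called whichever array was left out.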

How the results depend on the processing

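Of 170 member results, 158 to 169 kept their side of the threshold, and their direction where called, under quantile normalization, centring, 64 added to the linear value, the mean of probe sets, every probe set tested, trend and robust eBayes, the replicate block and groups alone. Among these, uncalled results changed sign, 17 with the mean of probe sets, 5 with quantile normalization and 4 with centring. The same befell 1 with 64 added and 1 with the replicate block. With the dimmest 40% of genes left out, 149 kept their side of the threshold and 4 became calls, and Erbb3 was not tested. With the authors' ratios 120 kept their side, 20 lost a call, 10 gained one and 3 were reversed, and Erbb3 was not tested. Of the 120, 17 were uncalled and changed sign. There Irs2 sat at its lowest value of -0.88 on 17 arrays, 11 of 11 Tsc1-null and 6 of 11 Tsc2-null. Erbb2 sat at -0.996 on 7 arrays (6 Tsc2-null, 1 Tsc1-null) and Insr at -0.96 on 7, all Tsc2-null. Members called at 2 h in Tsc2-null cells went from 1 to 0 with centring, the replicate block, groups alone and the ratio table. They went from 5 to 1 at 6 h in Tsc2-null cells in the ratio table, and from 3 to 1 at 2 h in Tsc1-null cells with groups alone. Called interactions went from 0 to 1 at 2 h in the ratio table, from 1 to 0 at 6 h with every probe set tested and to 2 in the ratio table, and from 3 to 5 at 12 h with the mean of probe sets. The cause was not tested.

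Leaving out 1 array gave 7 to 8 called members for Tsc2-null and 7 to 9 for Tsc1-null against wild type and 8 to 8 between the null lines. At 2, 6, 12 and 24 h of rapamycin it gave 0 to 1, 3 to 5, 5 to 7 and 6 to 7 in Tsc2-null cells, and 1 to 2, 4 to 5, 6 to 8 and 8 to 8 in Tsc1-null cells. It gave 6 to 7 and 4 to 6 for the null lines at 24 h against wild type. For the interactions it gave 0 to 0, 0 to 1, 1 to 3 and 2 to 5. The F tests called 6 to 8 members in Tsc2-null and 7 to 8 in Tsc1-null cells over all alternatives.

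Other probe sets reversed 20 member results. A dim Insr probe set gave 0.0054 for Tsc2-null against wild type, -0.0903 and -0.17 at 6 and 12 h of rapamycin in Tsc2-null cells, -0.087 and -0.10 at 12 and 24 h in Tsc1-null cells, and -0.079 for Tsc1-null at 24 h against wild type. One dim Egfr probe set gave -0.052 for Tsc2-null against wild type, 0.25 between the null lines, and -0.16 and -0.15 at 12 and 24 h in Tsc1-null cells. Another gave -0.26 for Tsc2-null against wild type and -0.18 at 24 h against wild type. A further one gave -0.048 and -0.012 at 12 and 24 h in Tsc1-null cells and -0.049 for Tsc2-null at 24 h against wild type. A dim Igf1r probe set gave 0.026 for Tsc1-null against wild type, -0.019 at 6 h in Tsc2-null cells, and -0.075 and -0.063 at 6 and 12 h in Tsc1-null cells. The dimmest Pdgfra probe set gave -0.18 at 6 h in Tsc1-null cells. In the ratio table the Insr interactions were 0.60, 0.24 and 0.25 at 6, 12 and 24 h, all of the opposite sign to the main fit.

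Deviations of same-numbered arrays from their group means gave r from -0.41 to 0.55 over 55 pairs for replicate 1 (median -0.06, 16 pairs over 0.1). In groups of 2 arrays the deviations mirror each other, so this check is weak. It cannot exclude batches shared by some groups. The main fit left the replicate number out. With the number as a block, 6 member calls were missed, for Irs2 at 2 h (0.0757) and Grb10 at 24 h (0.0516) in Tsc2-null cells, and for Pdgfra at 2 h (0.0561), Insr at 6 h (0.0733), Pdgfrb at 12 h (0.0695) and Egfr at 12 h (0.0547) in Tsc1-null cells. Over all genes the calls at 2 h moved from 400 to between 152 and 607 in Tsc2-null and from 592 to between 134 and 910 in Tsc1-null cells, and those of the 2 h interaction from 19 to between 5 and 31, or 95 of 9522 in the ratio table. The 6 h interaction moved from 755 to between 260 and 1145, and 6 h in Tsc1-null cells from 4094 to 2370 and 2085 without either 6 h array. A single line per genotype, wild-type rapamycin arrays not analysed here, and signal near background, as for Erbb3, limit these results.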
